A study of Macaca mulatta with 20 samples.

Results

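The cytosolic ribosome proteins were followed as mRNA in liver biopsies of 10 rhesus monkeys (Macaca mulatta). Members were all gene symbols that begin with RPL or RPS and a number, together with RPLP0, RPLP1, RPLP2 and RPSA, without the S6 kinases and the Y-linked RPS4Y genes. A gene was kept with at least 10 counts in at least 5 of the 20 libraries. Of 89 symbols that matched among 18288 genes, 86 were kept. RPL10L, RPL39L and RPL3L, paralogs of core genes, reached at most 1, 9 and 3 counts in any library and were left out. The 86 comprised 77 core genes (31 of the small and 46 of the large subunit) and 5 paralogs (RPL22L1, RPL26L1, RPL36AL, RPL7L1 and RPS27L). They also held 3 readthrough genes, which join a ribosomal gene to its neighbour, and RPS19BP1, which binds RPS19 and is not itself a ribosomal protein. FAU and GNB2L1, which encode further ribosomal components, carry other names and were not members.

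The study asked how caloric restriction acts on the liver. Control animals 001, 005, 006, 009 and 010 ate a control diet, and CR animals 004, 007, 008, 011 and 012 were assigned to caloric restriction. Each animal gave 1 biopsy at enrolment (year 0), before the study diet, and 1 after 2 years, which makes 4 groups of 5 libraries. No genetic change or other agent is named for any group, and neither the animals' ages nor the degree of restriction is stated in the labels. Each library is 1 animal at 1 time.

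A ribosome is built from a small subunit, which reads the mRNA, and a large subunit, which joins amino acids. Each protein is needed in a fixed proportion to the others. In vertebrates the mRNAs of these proteins carry a pyrimidine tract at their start (TOP mRNAs), and their translation follows nutrient signalling through mTOR. The liver makes large amounts of plasma protein and so depends on ribosomes. An mRNA level says nothing about how strongly that mRNA is translated.

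Control 009 at year 2 was the shallowest library with 15421790 counts, and the other 19 held between 20883568 and 31440640. Control 009 and Control 001 at year 2 stood apart. They correlated with the rest at a median of 0.851 and 0.898, where all others reached 0.954 or more. Albumin took 5.42% and 8.57% of their counts, against 10.6% to 15.8% in the other 18. The TMM scaling factors of these libraries were 1.66 and 0.763, against 0.900 to 1.11. The members' medians in comparisons that use these animals are given with and without both, as are some single genes. The hepatocyte markers were present in every group: their summed level, in CPM (counts scaled to a fixed library total after TMM, edgeR's correction for composition), was 62692 in Control 009 at year 2, the lowest of that group, whose highest was 307305. It ran from 221372 to 285667 in Control at year 0, from 203176 to 271191 in CR at year 0 and from 245371 to 296941 in CR at year 2.

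The ribosomal genes together took about 2% of all counts. In Control at year 0 animal 001 had 1.80%, animal 005 had 2.47%, animal 006 had 2.08%, animal 009 had 1.84% and animal 010 had 2.07%, with a mean of 2.05% ± 0.267 (SD, n = 5). In Control at year 2 it was 2.45%, 1.85%, 2.13%, 3.71% and 2.71% in the same order, with a mean of 2.57% ± 0.715 (SD, n = 5). The share was higher at year 2 in 4 of the Control animals and lower in 005. After TMM scaling, which the later comparisons use, the members' summed level was lower in 006 too, at 22917 and then 21171 CPM. In 009 it went from 20466 to 22308 CPM, a smaller rise than that of the share. In 001 it went from 17737 to 32138 CPM. In CR at year 0 animal 004 had 1.64%, animal 007 had 1.91%, animal 008 had 1.89%, animal 011 had 1.87% and animal 012 had 2.00%, with a mean of 1.86% ± 0.135 (SD, n = 5). In CR at year 2 it was 2.01%, 1.98%, 2.26%, 1.77% and 2.75%, with a mean of 2.15% ± 0.375 (SD, n = 5). It was higher at year 2 in each CR animal but 011, and all 4 groups overlapped. In TPM, transcripts scaled to a fixed total and so a level per length, the mean share was 6.78% ± 0.653 and 8.21% ± 2.58 in Control at year 0 and year 2, and 6.50% ± 0.557 and 7.24% ± 1.08 in CR (SD, n = 5 each). Fewer cells of a type and less RNA per cell cannot be told apart in such bulk tissue.

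**Figure D1:**
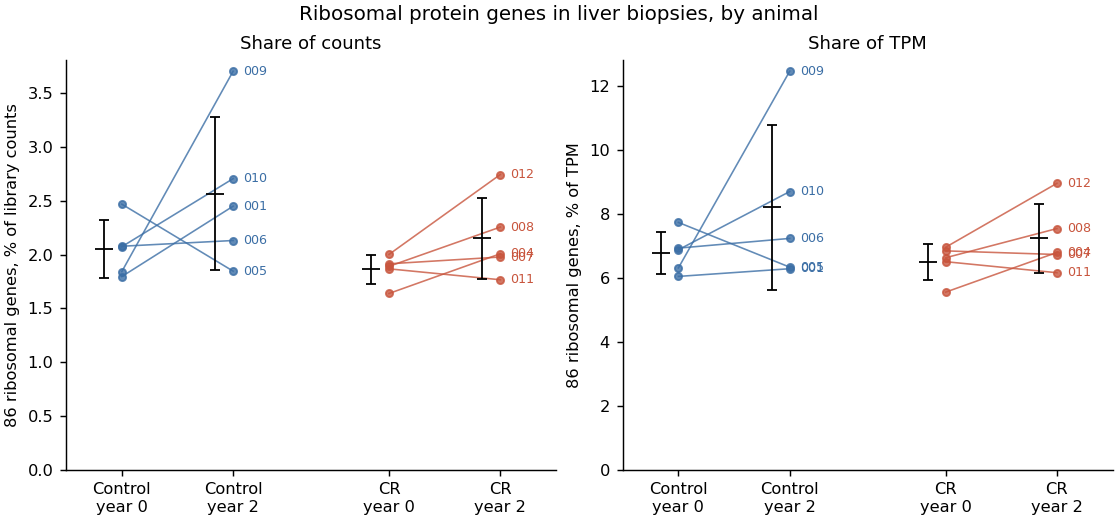
Share of library counts (left) and of TPM (right), in %, taken by the 86 ribosomal genes; points are libraries, lines join the biopsies of an animal, and black bars give the group mean ± SD (n = 5). Control 009 at year 2 is highest at 3.71% of counts and 12.5% of TPM.

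Levels differed widely between members. Per length, the core genes had a median mean level of 871 TPM over the 20 libraries, with quartiles of 610 and 1167. The highest were RPS27 at 3243 TPM, RPS18 at 2526, RPS29 at 2250, RPL41 at 2084 and RPL26 at 1738. The lowest of all 86 were RPS10-NUDT3 at 0.80 TPM, RPL7L1 at 20.5, RPL36A-HNRNPH2 at 33.3, RPS19BP1 at 40.7 and RPL26L1 at 42.5. The lowest core gene was RPL28 at 43.0 TPM, whose effective length in the authors' table was 3888 bases against a median of 518 for the core genes. Ribosomal proteins are short, so a TPM depends strongly on the length annotated for the gene. RPL39, a small protein of the exit tunnel, had 1396 TPM, and RPS6, the small subunit protein phosphorylated by S6 kinases, had 1397 TPM. RPLP0, the base of the large subunit's stalk, had 1029 TPM. RPL5 and RPL11, which join 5S rRNA in a particle that can bind MDM2, had 857 and 1061 TPM.

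Paralogs were lower than their partners in TPM, except RPL36AL. RPL26L1 was at 1.5% to 5.86% of RPL26, RPS27L at 1.85% to 7.21% of RPS27 and RPL7L1 at 1.11% to 6.11% of RPL7. RPL36AL was at 210% to 577% of RPL36A. RPL22L1 was at 19.9% to 38.8% of RPL22 in 18 libraries and at 77.7% in Control 009 and 76.2% in Control 010 at year 2. Paralogs resemble their partners in sequence, and counting can split reads between such genes. No count of these paralogs, or of RPL22, RPL26, RPL7 and RPS27, held a fraction of a read. RPL36A's counts held a fraction in 95% of libraries.

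Core genes varied together. The SD of log2 CPM over the 20 libraries had a median of 0.312 among core genes, against 0.447 among all 13730 tested genes. The lower quartile of all tested genes was 0.314, and the sets were not matched for abundance. After the mean of the core genes in each library was subtracted, the median SD was 0.164. RPS6 kept closest to the core mean with an SD of 0.053, followed by RPS3A at 0.072 and RPL19 at 0.076. RPL35, a protein near the tunnel exit, varied most of the core genes, at 0.460. Outside the core, RPS10-NUDT3 at 2.86, RPL7L1 at 0.83, RPS19BP1 at 0.66, RPL22L1 at 0.60 and RPL17-C18orf32 at 0.50 varied most.

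Among 3634 non-member genes with a mean log2 CPM of at least 5, those nearest to the core mean included other ribosomal components. GNB2L1, the small subunit scaffold also called RACK1, was nearest with an SD of 0.101, and NACA, which meets the nascent chain at the exit tunnel, followed at 0.112. FAU, which encodes a small subunit protein fused to a ubiquitin-like protein, was at 0.142. TOMM7 (0.114) of the mitochondrial import pore, NDUFA1 (0.141) and COX6C (0.143) of the respiratory chain, and EIF3K (0.145), a subunit of initiation factor 3, were also among the nearest 10. KRTCAP2 (0.140), ANAPC16 (0.143) and RWDD1 (0.146) completed them.

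The proportions among core genes were altered in 2 libraries. Each core gene's distance from the core mean was compared with its usual distance. In 17 libraries no core gene departed by more than 0.5 on the log2 scale, and in Control 010 at year 2 only RPL17 did, at -0.93. In Control 001 at year 2, 26 of the 77 core genes did (11 above and 15 below), and in Control 009 at year 2, 25 did (11 above and 14 below). The SD of the departures was 0.568 and 0.503 in these, against 0.079 to 0.162 in the other 18. RPL35 was furthest above in Control 001, by 1.42, and stood 1.31 above in Control 009. RPS25, a small subunit protein, was furthest below in Control 001, at -1.58, and RPLP0 in Control 009, at -1.29. Of the 8 genes outside this range in both, 5 were above in both (RPL13, RPL35, RPL36, RPS15 and RPS21), 2 below in both (RPL5 and RPS27), and RPS7 went opposite ways. The ratio of large to small subunit counts was 1.24 in Control 009 at year 2 and 1.40 to 1.49 elsewhere. Whether tissue, RNA or library preparation differed in these libraries was not tested.

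Under CR, 77 of 77 core genes were higher at year 2 than at year 0, by log2 changes of 0.015 to 0.52, and none passed the test. Of the 86 members, 84 were higher, with a median log2 change of 0.25, where 50.2% of all tested genes were higher and their median was 0.0012. Small and large subunit genes had medians of 0.25 and 0.25. Members are not replicates, since they move together within a library, so this count rests on 5 animals. With edgeR, 0 members had an adjusted p under 0.05 (0% of all genes) and 2 had an unadjusted p under 0.05. DESeq2 called 0 members as well, where it called 0.131% of all genes, and limma on TPM called 0. On TPM, 81 of 85 members were higher and their median was 0.141, where that of all genes was -0.090. When the spread was taken from CR animals only, 22 members had an unadjusted p under 0.05, where 10.1% of all genes did.

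By animal, the median log2 change of the members was 0.50 in 004, with 83 of 86 higher. It was 0.13 in 007 with 75 higher, 0.29 in 008 with 80 higher and 0.39 in 012 with 82 higher. CR 011 went the other way, with 24 higher and a median of -0.06. In CR, 18 members were higher in 5 of 5 animals, where 6.55% of all genes were. Within each CR animal, the core genes' changes had an SD of 0.128 to 0.195.

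RPL39 and RPL12 had the smallest p-values. RPL39 was at 135, 165, 156, 120.1 and 131 CPM in CR animals 004, 007, 008, 011 and 012 at year 0, and at 167, 179, 187, 164 and 252 CPM at year 2. Every animal was higher at year 2, although the groups overlapped. The log2 change was 0.41 ± 0.18 (SE), with an edgeR adjusted p of 0.999. RPL12, a protein at the base of the stalk, was at 177, 205, 192, 157 and 174 CPM at year 0 and at 276, 243, 232, 215 and 342 CPM at year 2. Each animal was higher and the groups did not overlap. Its log2 change was 0.52 ± 0.24 (SE; edgeR adjusted p = 0.999). RPS6 was at 403, 475, 457, 462 and 529.6 CPM at year 0 and at 534, 540.0, 568, 448 and 694 CPM at year 2, lower only in 011. RPL37 (0.46 ± 0.28) and RPL26L1 (0.41 ± 0.23) had further log2 changes of this size (SE), and RPL7L1, a paralog of RPL7 linked to ribosome assembly, had -0.27 ± 0.33.

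**Figure D2:**
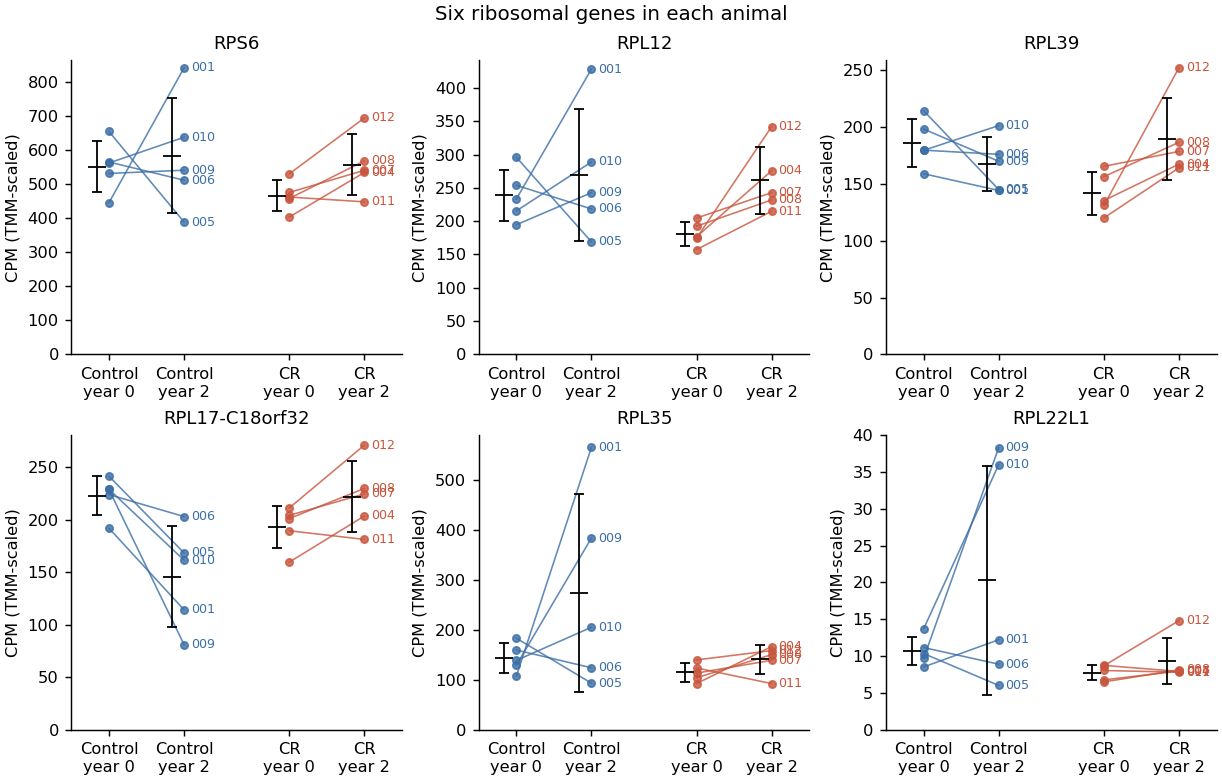
CPM (TMM-scaled) of 6 ribosomal genes in each animal at year 0 and year 2; points are libraries, lines join an animal's biopsies, and black bars give the group mean ± SD (n = 5). RPL39 and RPL12 are higher in every CR animal at year 2, RPL17-C18orf32 is lower in every Control animal, and RPL35 reaches 565 CPM in Control 001.

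In Control, the animals went different ways. Of 86 members, 59 were higher at year 2, with a median log2 change of 0.12, where 50.4% of all genes were higher. Animal 001 had a median of 0.87 (76 higher), animal 005 of -0.69 (2 higher), animal 006 of -0.11 (15 higher), animal 009 of 0.29 (55 higher) and animal 010 of 0.32 (78 higher). In 005, 0 of 77 core genes were higher. No member was higher in 5 of 5 Control animals, where 4.61% of all genes were. edgeR called 0 members (0% of all genes) with 1 at an unadjusted p under 0.05. DESeq2 called 0, where it called 1.52% of all genes, and limma called 0. With library totals alone 81 members were higher and the median was 0.303, where that of all genes was 0.196, and on TPM 77 of 85 were higher and the medians were 0.224 and 0.116. Without 001 and 009 the median was -0.129, with 5 members higher, and without 001 alone it was -0.0588. Without 005 it was 0.346.

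RPL17-C18orf32 had the smallest p in Control. It was at 192, 242, 224, 229 and 229 CPM in animals 001, 005, 006, 009 and 010 at year 0 and at 114, 168, 203, 80.9 and 162 CPM at year 2. It was lower in every animal and the groups overlapped. The log2 change was -0.68 ± 0.20 (SE), with an edgeR adjusted p of 0.297. By animal it was -0.749 in 001 and -1.499 in 009, against -0.521 in 005, -0.142 in 006 and -0.504 in 010. In the fit without 001 and 009 the lowest change of any member was -0.595, in a core gene. The fall of RPL17-C18orf32 was therefore smaller there. Each count of RPL17-C18orf32, and each of RPL17, held a fraction of a read, so the values of both are uncertain. In the RefSeq annotation of a later assembly (T2T-MMU8v2.0), RPL17 and C18orf32 lie next to each other. In TPM it was at 33.3% to 51.1% of RPL17 in 18 libraries, and at 16.3% and 18.2% in Control 001 and 009 at year 2.

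RPL35 was at 107, 183, 159, 129 and 139 CPM in the Control animals at year 0 and at 565, 92.9, 124, 384 and 205 CPM at year 2. The highest values were those of 001 and 009: the log2 change was 0.63 ± 0.42 (SE), and -0.24 without them. RPL13 (0.57 ± 0.31) and RPS21 (0.49 ± 0.26) were likewise at -0.07 and -0.02 without both animals. RPL22L1, the paralog of RPL22, was at 8.50, 10.3, 11.1, 9.65 and 13.7 CPM at year 0 and at 12.2, 5.99, 8.88, 38.3 and 36.0 CPM at year 2, high in 009 and 010. RPS10-NUDT3 had 0 counts in 15 libraries and between 13 and 219 in 5, so no fold is given for it.

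The change in CR less the change in Control had a median of 0.15 among members, with 68 of 86 above 0, where 50.6% of all genes were. edgeR called 0 members (0% of all genes), with 2 at an unadjusted p under 0.05. DESeq2 called 0, where it called 0.299% of all genes, and limma called 0. RPL17-C18orf32 differed by 0.88 ± 0.28 on the log2 scale (SE; edgeR adjusted p = 0.681) and RPL39 by 0.57 ± 0.26 (adjusted p = 0.720). Control 001 and 009, in which RPL17-C18orf32 fell most, enter its difference. RPL35 differed by -0.34 ± 0.58, and by 0.53 without 001 and 009. The direction of the median depended on scaling: it was -0.0919 with library totals alone, where the median of all genes was -0.236, and -0.0808 on TPM, where that of all genes was -0.201. Members stood 0.144 and 0.120 above all genes in these fits. The median was 0.391 without 001 and 009, 0.309 without 001 alone and -0.0798 without 005.

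At enrolment, before the diets differed, all 77 core genes were lower in CR than in Control animals on TMM-scaled counts. Of 85 members tested, 83 were lower, with a median log2 difference of -0.22, where 52.3% of all genes were lower. By edgeR 0 members passed an adjusted p of 0.05, where 0.242% of all genes did. At an unadjusted p under 0.05, 21 members were lower, where 9.07% of all genes were. The spread there came from the 10 libraries of year 0. An edgeR fit of all 20 libraries without the animal block had a median of -0.223, with 5 members at an unadjusted p under 0.05. Its smallest edgeR adjusted p of a member was 0.658, and 0 genes were called. DESeq2 called 7 members, where it called 5.86% of all genes: RPS9, RPS19BP1, RPL26L1, RPL39, RPL28, RPL36 and RPL12. limma on TPM called 0, where it called 3.09% of all genes. On TPM, 60 of 77 core genes and 65 of 85 members were lower, and the members' median was -0.043, where that of all genes was 0.122. With library totals alone, 77 core genes were lower and the members' median was -0.137, where that of all genes was 0.069. Without 001 and 009, edgeR called 2 members, RPL36 and RPL36A, where it called 1.69% of all genes, and the median was -0.347. Counts of RPL36A held a fraction of a read in 95% of libraries, so its values are uncertain. edgeR called 1 member without 001 (2.55% of all genes) and 1 without 004 (0.698%). The median was -0.129 without 005. The CR libraries of year 0 also enter the change in CR, so these comparisons share samples.

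RPS9, a small subunit protein involved in decoding, was at 204, 237, 215, 191 and 196 CPM in Control animals 001, 005, 006, 009 and 010 at year 0. It was at 171, 169, 162, 159 and 169.6 CPM in CR animals 004, 007, 008, 011 and 012. The groups did not overlap, and the log2 difference was -0.32 ± 0.09 (SE; edgeR adjusted p = 0.0992, DESeq2 adjusted p = 0.00234). RPL26L1, RPL28 and RPS21 were the other members without overlap, 4 in all, where 2.15% of all genes were lower in CR without overlap. At year 2 no member was. RPS19BP1 was at 17.2, 17.0, 14.1, 15.8 and 16.7 CPM in Control and at 14.6, 8.61, 9.84, 10.6 and 7.24 CPM in CR. Its groups overlapped through CR 004, and the log2 difference was -0.66 ± 0.17 (SE; edgeR adjusted p = 0.0886, and 0.0368 without 004). RPL36 (-0.43 ± 0.13) and RPS20 (-0.51 ± 0.17) were further low in CR, with edgeR adjusted p-values of 0.126 and 0.158. Without 001 that of RPL36 was 0.0436.

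At year 2, 61 of 85 members were lower in CR than in Control, where 56.3% of all genes were, and the median log2 difference was -0.13. edgeR called 0 members (0% of all genes), with 3 at an unadjusted p under 0.05. DESeq2 called 0, where it called 0.0525% of all genes, and limma called 0. With library totals alone 80 members were lower and the median was -0.291, where that of all genes was -0.251. RPL22L1 (-1.13 ± 0.49, SE), RPS19BP1 (-1.21 ± 0.54) and RPL35 (-0.97 ± 0.45) were lowest in CR, with edgeR adjusted p-values of 0.659. Without 001 and 009 these differences were -0.86, -0.03 and 0.0061. Without 001 and 009 the median was 0.0448, with 68 members higher in CR. It was 0.0222 without 001 alone and -0.244 without 005.

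**Figure D3:**
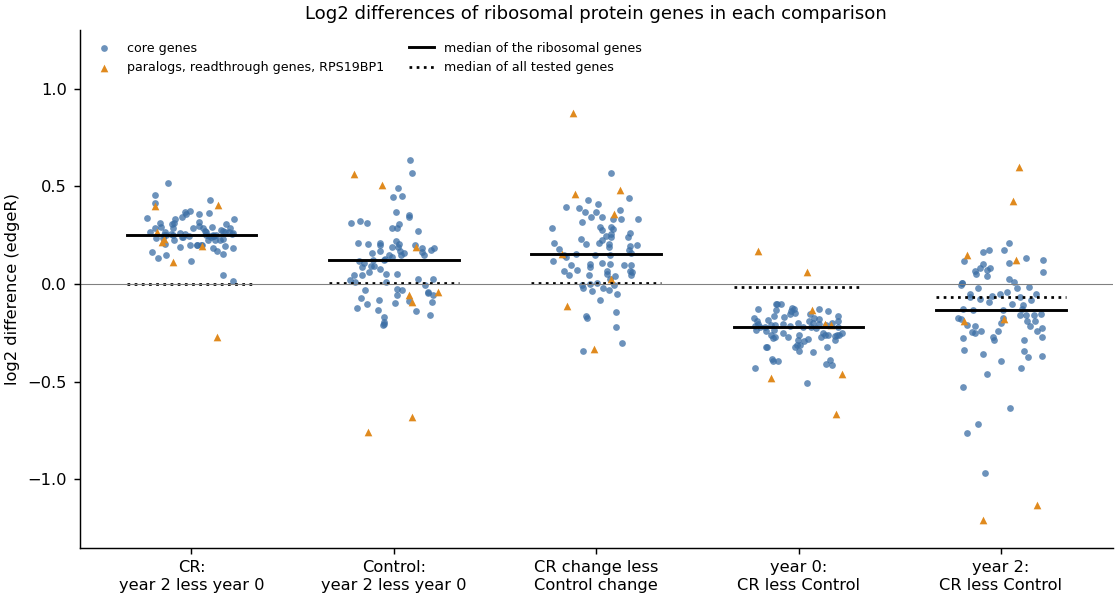
Log2 differences (edgeR) of the ribosomal genes in the 5 comparisons; circles are core genes, triangles the paralogs, readthrough genes and RPS19BP1, without RPS10-NUDT3, solid lines the median of the members and dotted lines the median of all tested genes. Core genes lie above 0 in CR over time and below 0 in CR against Control at year 0.

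Other short genes had differences of the same sign as the ribosomal genes. Under CR, 268 non-member genes with an effective length under 500 bases had a median log2 change of 0.207, against 0.261 for the 37 core genes of that length. The median was lower in each longer class, down to -0.108 in the 3682 genes over 4000 bases. At year 0, the CR less Control medians were -0.271 for short non-member genes and -0.252 for core genes, and 0.080 for genes over 4000 bases. In Control over time, the non-member and core medians under 500 bases were 0.185 and 0.138. They were 0.033 and 0.139 for the difference of changes, and -0.328 and -0.157 for CR less Control at year 2. Between 1000 and 2000 bases, the non-member and core medians were 0.077 and 0.211 under CR and -0.083 and -0.239 at year 0, with 8 core genes. By animal, short non-member genes had a median of 0.998 in Control 001 and -0.460 in Control 005, where the members had 0.87 and -0.69. In CR 004 the medians were 0.219 and 0.50, and in CR 011 they were 0.0065 and -0.06, of opposite sign. The part of length in the members' differences was not tested.

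**Figure D4:**
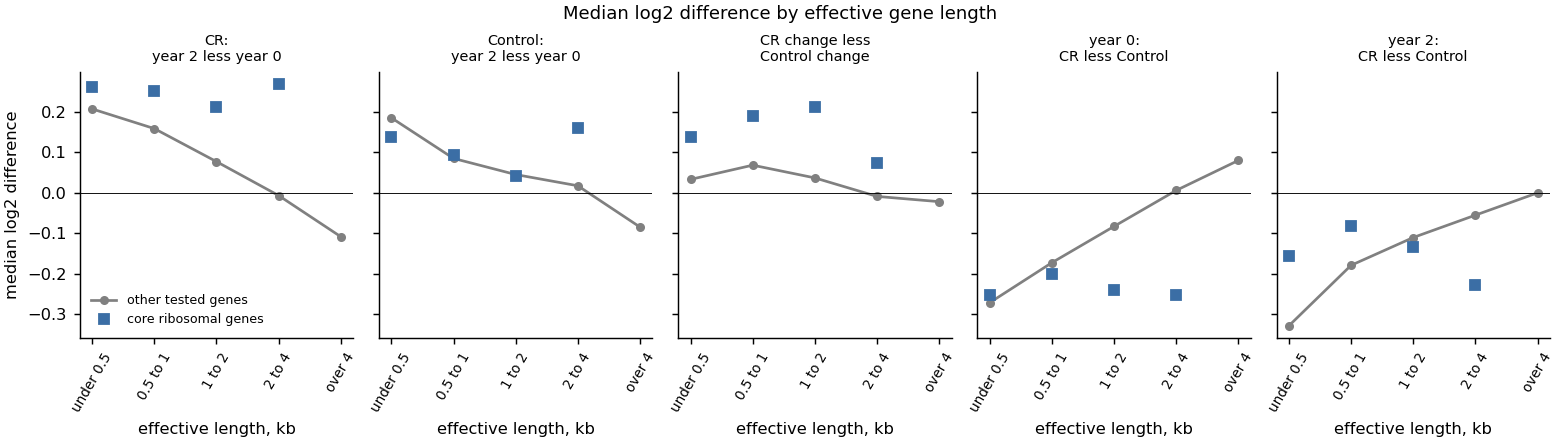
Median log2 difference by effective gene length (kb) in the 5 comparisons; grey points joined by lines are non-member genes and squares are core ribosomal genes, of which there are 37, 29, 8 and 3 in the first 4 classes. Under 0.5 kb, non-member and core medians are 0.207 and 0.261 under CR and -0.271 and -0.252 at year 0.

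Markers of other cells differed as well, and edgeR called 1 hepatocyte and 1 lymphocyte marker at year 0, where it called 0.242% of all genes. Of 15 macrophage markers tested, 0 were higher at year 2 than at year 0 in CR (median log2 change -0.60). In Control 15 were (0.43). Against Control at year 0, 15 were higher in CR, with a median log2 difference of 0.74. At year 0, 13 of them had an unadjusted p under 0.05, where 9.07% of all genes were lower in CR at that p. The share of all genes higher in CR at that p was not taken. Over time, 50.2% of all genes were higher in CR and 50.4% in Control, and 52.3% were lower in CR at year 0. The macrophage markers' summed level ran from 746 to 1348 CPM in Control at year 0 and from 1493 to 1710.1 CPM in CR at year 0. It ran from 917 to 2196 CPM in Control and from 511 to 1608 CPM in CR at year 2, and no macrophage marker was at 0 in every library. Of 17 hepatocyte markers, 15 were higher over time in CR and 1 in Control. At year 0, 14 were lower in CR than in Control. Of 15 lymphocyte markers, 2 were higher over time in CR, 13 in Control, and 12 in CR against Control at year 0. Of 10 endothelial markers these counts were 0, 8 and 9, and of 10 stellate markers 9, 8 and 3. Of 6 neutrophil markers, 2 were higher over time in CR and 5 in Control. Of 9 cholangiocyte markers, 9 were higher over time in CR (median 0.45) and 7 in Control (0.43). Of 7 red cell markers, 6 were lower in CR than in Control at year 0 (median -1.10). HBD, a red cell marker, and MYH7, a muscle marker, were at 0 in every library. The part of cell composition in the members' differences was not tested.

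Genes that work with the ribosome were compared by 4 lists, and edgeR called 0 of their genes in any comparison. At an unadjusted p under 0.05 were at most 10 of the assembly genes and 3 of the growth signalling genes. Among the named listed genes, DESeq2 and limma called POLR1B and CCNG1 at year 0, and limma also AKT1. DESeq2 called 5.86% and limma 3.09% of all genes there. Of 22 other TOP mRNAs, 20 were higher over time in CR (median 0.18), 11 in Control (0.011), and 15 were lower in CR at year 0 (-0.11). Of all genes, 50.2% and 50.4% were higher over time in CR and Control, and 52.3% were lower in CR at year 0. EIF3F, an initiation factor subunit, and HNRNPA1, an RNA-binding protein, had log2 changes of 0.22 ± 0.17 and 0.24 ± 0.18 (SE) in CR. Of 72 ribosome assembly genes, 62 were higher over time in CR (median 0.20) and 47 in Control (0.096), and 58 were lower in CR at year 0 (-0.13). NOP10, of the pseudouridine-guiding particle, was at 0.44 ± 0.20 in CR. POLR1B, a large subunit of RNA polymerase I, went the other way, at -0.43 ± 0.26 in CR and 0.75 ± 0.26 in Control, and 0.78 ± 0.19 higher in CR at year 0 (edgeR adjusted p = 0.0855).

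Of 17 growth signalling genes, 6 were higher over time in CR (median -0.047) and 8 in Control (-0.071), where 50.2% and 50.4% of all genes were. RPS6KB2, an S6 kinase, was at -0.35 ± 0.27 in CR and 0.66 ± 0.28 in Control, and MTOR at -0.23 ± 0.19 and -0.17 ± 0.19 (SE). LARP1, which binds TOP mRNAs, was at -0.19 ± 0.17 and 0.36 ± 0.17. Of 14 p53 pathway genes, 6 were higher in either diet over time and 9 were higher in CR at year 0, where CCNG1, a p53 target, differed by 0.48 ± 0.12 (SE; edgeR adjusted p = 0.0936).

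Transcript use could be tested for RPL38 and RPL9 among the members. The second transcript of RPL9 gave 50.9% to 59.5% of its counts in 18 libraries, and 82.2% in Control 001 and 72.0% in Control 009 at year 2. The first transcript of RPL38 gave 84.1% to 90.5%. The adjusted Simes p of diffSpliceDGE in edgeR was 1 for both genes in all 5 comparisons.

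The authors' deposited table lists 3071 genes for a comparison it does not name, and 18 are members. In the authors' deposited table, 17 of them have a positive log2 fold change and 1 has an adjusted p under 0.05, RPL17-C18orf32, at 0.75 with 0.0109. Of all genes in the authors' deposited table, 61.2% are positive and 16.7% have an adjusted p under 0.05. RPL39 follows in the authors' deposited table at 0.45 with an adjusted p of 0.117. Since the comparison is not named, these values are set beside no other.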

How the data were processed

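Liver RNA libraries (TruSeq, paired-end, per the labels' protocols) were grouped by labelled diet and year, and paired by the animal number in the titles. For genes and transcripts the authors deposited expected counts, TPM, and FPKM (used only for the effective length). The submitters' processing notes name STAR, RSEM and DESeq2, with no roles, and the build Mmul_8.0.1 (rheMac8). Neither the annotation nor the strand setting is given in the sources read. A table deposited by the authors holds a mean signal (normalized counts) and a log2 fold change per gene, each with its p-value, also adjusted. Of member values, 6.51% were not whole, against 4.37% of all.

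Counts were rounded, filtered (filterByExpr), TMM-scaled and tested two-sided with edgeR 4.0.16 in R 4.3.3. The test was the robust quasi-likelihood F, with Benjamini-Hochberg adjustment over all genes and a threshold of 0.05. The code was checked on simulated independent genes with changes larger than the members' median shifts. That check does not cover shifts of the members' size or genes that move together. Changes came from 1 fit of 20 libraries, with a term for each animal and, within each diet, for year 2 (13730 genes), and CR less Control from 10 libraries (13244 genes at year 0, 13345 at year 2). An SE is the log2 difference over the root of F. Alternatives were DESeq2 1.42.0, limma 3.58.1 on log2(TPM + 1), other scalings and filters, and animals left out. No 2 libraries were identical. Pairing comes from the labels; the correlation of an animal's deviations ran from -0.25 to 0.16. RefSeq symbols matched 81 members. Intervals rest on spread between animals, and each library held at least 15421790 counts.

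Members, lists and tests were chosen with earlier results of these data known. Named were, per comparison, members of smallest p and of extreme change, members of extreme or most variable level, a panel of members by role, and the first listed genes by p. Some items are not reported here by name.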

Additional observations from a re-analysis of the deposited data

Results flagged for a closer look

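Among 37 named members and 3 sums, 160 groups of 5 were examined for 1 library far from the other 4, and 11 were found, where chance gives about 1 in 20. Members move together within a library, so the groups are not independent and this rate cannot judge the 11. In Control at year 2, animal 001 was highest for RPL26L1 at 29.6 CPM, RPL41 at 870.0 CPM, RPS9 at 556.5 CPM and RPS19BP1 at 91.2 CPM. In the same group, animal 009 was lowest for RPL36A-HNRNPH2 at 28.6 CPM and highest for RPS10-NUDT3 at 4.25 CPM. Counts of these readthrough genes held a fraction of a read in 100% and 25% of libraries. In CR at year 2, animal 012 was highest for RPL22L1 at 14.8 CPM, RPL3 at 907 CPM, RPL39 at 252 CPM and RPLP0 at 781 CPM, and animal 007 for RPS10-NUDT3 at 2.49 CPM.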

How the results depend on the processing

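The median change in CR and the year 0 difference kept their direction under all alternatives run, but with limma on log2(TPM + 1) they were 0.141 and -0.043. The median change in Control was -0.129 without animals 001 and 009 and ran from -0.0588 to 0.346 with 1 animal left out. The difference between the changes was -0.0919 with library totals only and -0.0808 with limma on log2(TPM + 1), and ran from -0.0798 to 0.309 with 1 animal left out. The year 2 difference was 0.0448 without 001 and 009 and ran from -0.244 to 0.0222 with 1 animal left out. Members called at year 0 were 7 with DESeq2 (5.86% of all genes), 2 without 001 and 009 (1.69%), and 0 to 1 with 1 animal left out (1 without 001, where 2.55% of all genes were called). Without the replicate block by animal, the medians were 0.262 in CR, 0.154 in Control and 0.112 for their difference. In these fits 0 members were called by edgeR, and 2, 9 and 3 were at an unadjusted p under 0.05. The share of all genes at that p was not taken for fits without the block. Nor was it taken for the main changes, their difference or the year 2 difference. Those counts of members therefore cannot be judged against all genes.

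Without 001 and 009, single genes changed direction: in Control over time RPL7L1 (0.055), RPS21 (-0.015), RPL13 (-0.067), RPL35 (-0.242) and PABPC1 (0.206); RPL35 in the difference of changes (0.527, and from -0.783 to 0.085 with 1 animal left out); and at year 2 RPL35 (0.0061), RPL7L1 (-0.044), EEF1D (0.086), TAF1C (0.083) and BAX (0.197). RPS27L at year 0 ran from -0.187 (without 004) to 0.168 (without 001) with 1 animal left out, and was just below 0 without 006. The cause was not tested. With the spread of CR alone, added after seeing the data, 22 members had an unadjusted p under 0.05 in CR, where 10.1% of all genes did, and 0 were called. With 5 animals a group, shifts of the size seen in CR did not pass the test.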
